A study of Mus musculus with 8 samples.

Results

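The 3 Tet genes (Tet1, Tet2 and Tet3), the isocitrate dehydrogenase genes Idh1 and Idh2, and the Tet partners Cxxc5 and Ogt were examined in adult oligodendrocyte progenitor cells (aOPC) and adult oligodendrocytes (aOL) of the mouse brain. These 7 genes were taken as a list of names, and the rule used no measured value. All 7 were among the 11315 genes of the RNA tables. In the tables of reduced representation hydroxymethylation profiling (RRHP), 397 of 1497075 CpG sites carried one of the 7 symbols in the authors' promoter, exon or intron column. Per the labels, all mice were C57BL/6 at postnatal day 60. The aOPC were EGFP-positive cells sorted from Pdgfra-H2BEGFP mice, which mark cells that express Pdgfra, and the aOL were EGFP-positive cells from Plp-EGFP mice, in which the Plp promoter drives EGFP. Each population had 2 RNA libraries and 2 RRHP libraries, replicates 2 and 3 of the titles, with DNA and RNA taken from one pellet of cells. The tissue label of the aOL RRHP libraries names the Pdgfra reporter, so groups followed the titles, and the RNA titles call the aOL pre-myelinating where the protocol calls them myelinating.

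By immunostaining, the paper reports PDGFRα and NG2 protein in most cells of the Pdgfra sort and MBP and MOG in most of the Plp sort. The RNA libraries were checked here against markers of their labelled cell types. The median of 10 oligodendrocyte markers was 17.8 and 17.2 (log2) in the aOPC libraries against 17.5 and 17.6 in the aOL libraries. By this median the aOPC RNA held myelin transcripts at the level of aOL. Of these markers 5 were higher in aOL and 4 lower (Aspa, Cldn11, Mog and Opalin). The 4 lower ones were those with an unadjusted p under 0.05 (limma, 24% of all tested genes), none past the adjusted threshold. The median of 10 OPC markers was 9.62 and 7.60 in aOPC against 8.59 and 9.43 in aOL, so the groups overlapped and aOPC replicate 3 was the lowest of the 4. Of these markers 6 were lower in aOL and 4 higher (Ptprz1, Matn4, Olig2 and Sox10), none past the test. In aOL, Olig1 was at 16.38 and 16.45, Sox10 at 15.62 and 15.69 and Olig2 at 14.18 and 14.23, so these did not mark progenitors alone. Of the others, Neu4, Vcan, Pdgfra, Cspg4 and Gpr17 differed by -5.17, -4.20, -3.20, -0.81 and -0.52 log2. Ptprz1 and Matn4 differed by 1.06 and 0.80 log2. Pdgfra, the receptor that defines OPC, was at 7.54 and 5.47 in aOPC and at 4.98 and 1.63 in aOL. The Y-linked gene Ddx3y was at 12.43 in aOPC replicate 2 and between 0.32 and 1.63 in the other 3 libraries. RRHP totals ran from 7113237 to 27057859 counts, and CpG islands took 5.74% of the counts in aOPC replicate 2, against 2.38 to 3.32% in the other libraries. The part of these differences in the results was not tested. In sorted populations, fewer cells of a type and less RNA per cell cannot be told apart.

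TET enzymes oxidise 5-methylcytosine to 5-hydroxymethylcytosine (5hmC), a base that is abundant in the brain and is common in the bodies of expressed genes. They use 2-oxoglutarate, iron and oxygen, and ascorbate helps to keep the iron reduced. IDH1 in the cytosol and IDH2 in mitochondria make 2-oxoglutarate from isocitrate. CXXC5 is a zinc finger protein that binds CpG-rich DNA and interacts with TET2, and OGT is the enzyme that attaches O-linked N-acetylglucosamine to proteins and binds TET proteins. In RRHP, glucosylated 5hmC blocks the enzyme MspI at its target CCGG, so that a read marks a hydroxymethylated CCGG. A count is therefore a relative signal at one CCGG and one strand, not a share of modified cytosines.

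The sequences below are those of RRHP sites in the Tet genes and Idh2, read from GRCm38.p6 (the mm10 build) on the strand of the count. Capitals mark the CCGG, and each run has 13 bases on either side of it. The first 4 lines are the sites of highest signal in the Tet genes and Idh2, and the last 2 are the called sites of Tet1 and Idh2. The called Cxxc5 sites are given below by position only.
Tet1 exon 4, chr10:62839717-62839746, minus strand: caaagatggctctCCGGttcagccaagtct
Tet2 intron 1, chr3:133534267-133534296, minus strand: gtcctggctctgaCCGGgtcatgaccccaa
Tet3 intron 3, chr6:83424321-83424350, minus strand: ccttgttaaataaCCGGtcttgcccaaggt
Idh2 intron 1, chr7:80103272-80103301, minus strand: cccctgaactgtcCCGGggaggggaggtga
Tet1 last exon, chr10:62810131-62810160, minus strand: aaacaaaatacaaCCGGacagtggtagagc
Idh2 intron 3, chr7:80099858-80099887, minus strand: ccagcactgcgagCCGGtaacaaaggaaaa

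Promoters are shown for the Tet genes because sites at these starts carried little signal. RefSeq's promoter table for GRCm38.p6 matched 6 of the 7 genes, and the 250 bases before a start are given on the gene's strand with every CCGG in capitals. The search was for CCGG, which reads the same on both strands, and 47.1% of the 32851 promoters of that table held at least 1 in these 250 bases.
Tet1, chr10:62887325-62887574: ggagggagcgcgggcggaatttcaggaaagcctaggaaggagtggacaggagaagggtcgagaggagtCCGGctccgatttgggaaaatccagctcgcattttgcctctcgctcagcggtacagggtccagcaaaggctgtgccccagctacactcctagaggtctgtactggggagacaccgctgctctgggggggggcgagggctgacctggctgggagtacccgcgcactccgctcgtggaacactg
Tet2, chr3:133544391-133544640: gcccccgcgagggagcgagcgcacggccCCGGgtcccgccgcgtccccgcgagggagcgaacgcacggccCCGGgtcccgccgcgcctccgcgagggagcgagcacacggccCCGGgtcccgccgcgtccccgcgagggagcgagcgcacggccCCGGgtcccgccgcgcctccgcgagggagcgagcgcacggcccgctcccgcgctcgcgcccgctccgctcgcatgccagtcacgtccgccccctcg
Tet3, short transcript, chr6:83441679-83441928: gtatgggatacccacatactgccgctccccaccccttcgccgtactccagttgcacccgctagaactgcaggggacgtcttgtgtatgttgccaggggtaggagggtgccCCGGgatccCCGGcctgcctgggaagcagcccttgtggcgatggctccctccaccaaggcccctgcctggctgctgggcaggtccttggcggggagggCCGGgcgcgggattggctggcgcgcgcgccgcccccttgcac
The Tet2 sequence held 4 CCGG, each inside a repeated GC-rich unit, and 8.71% of promoters held as many or more. The Tet3 sequence held 3 and the Tet1 sequence 1. The highest count at any site of these windows in any library was 13 for Tet1, 3 for Tet2 and 8 for Tet3. The 4 Tet2 CCGG lay 42 bases apart in the repeated units, and whether such reads could be placed at one position was not tested.

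The first comparison asked whether RNA of the 7 genes differed between aOPC and aOL. None of the 7 passed the threshold of the limma test (unadjusted p under 0.01 and Benjamini-Hochberg adjusted p under 0.05), and 0.0808% of all tested genes did. None of the 7 had an unadjusted p under 0.05 either, against 24% of tested genes. The deposited log2 values hold no read counts, so the counts behind a gene's value could not be read from them. The plot of RNA by library shows each value.

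**Figure D1:**
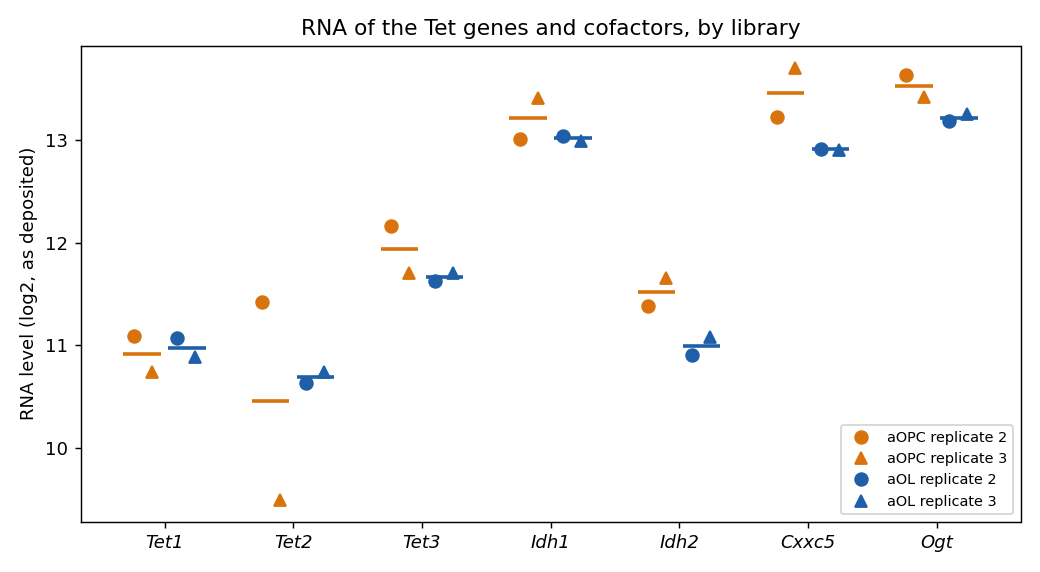
RNA level (log2, y axis) of the 7 genes in the 2 aOPC libraries (orange) and the 2 aOL libraries (blue), with horizontal lines at the mean of each population. The aOPC replicates of Tet2 lie at 11.42 and 9.49, on either side of the aOL libraries, whereas for Idh2, Cxxc5 and Ogt both aOL libraries lie below both aOPC libraries.

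Among the enzymes, Tet1 was at 11.09 and 10.74 in aOPC and at 11.08 and 10.88 in aOL. Its groups overlapped, with a difference (aOL minus aOPC) of 0.06 ± 0.23 log2 (SE, n = 2 libraries per population, adjusted p = 0.883 by limma). Tet3 was at 12.17 and 11.71 in aOPC and at 11.63 and 11.71 in aOL. Only aOPC replicate 2 stood above the rest for Tet3, and the difference was -0.27 ± 0.25 (adjusted p = 0.529, limma).

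Tet2 was at 11.42 and 9.49 in aOPC and at 10.64 and 10.74 in aOL. The aOPC libraries were 1.93 log2 units apart and enclosed the aOL libraries, which were 0.10 apart. The difference of 0.23 ± 0.69 (adjusted p = 0.854, limma) was thus decided by the choice of aOPC library. Without aOPC replicate 2 it was 1.20 (adjusted p = 0.0151), and without aOPC replicate 3 it was -0.73 (adjusted p = 0.0441), past the threshold in opposite directions. Of all tested genes 36.3% passed without aOPC replicate 2 and 21.3% without aOPC replicate 3, so the calls in these fits stand against a high background. In each of these fits the lone aOPC library was taken to vary as the aOL libraries did. Every RNA or RRHP fit below with 1 library left out likewise took the lone library to vary as the other population did.

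The 3 genes whose values followed Tet2 most closely over the 4 libraries were Arhgef1, Zfp598 and Pank4. The root mean square distance between their centred log2 values and those of Tet2 was 0.03, 0.05 and 0.05. Of the tested genes, 109 lay within 0.2 of Tet2 by this measure. Arhgef1 was at 12.50 and 10.50 in aOPC and at 11.70 and 11.76 in aOL, an order of libraries that its choice by likeness to Tet2 fixed.

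Of the 2-oxoglutarate producers, Idh1 was at 13.01 and 13.41 in aOPC and at 13.05 and 12.998 in aOL. The groups overlapped and the difference was -0.19 ± 0.23 (adjusted p = 0.63, limma). Idh2 was at 11.38 and 11.65 in aOPC and at 10.91 and 11.08 in aOL. Both aOL libraries lay below both aOPC libraries, but the difference of -0.52 ± 0.22 did not pass the test (adjusted p = 0.238, limma).

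Of the partners, Cxxc5 was at 13.22 and 13.71 in aOPC and at 12.91 in each aOL library. The difference was -0.55 ± 0.25 (adjusted p = 0.264, limma), and it reached -0.80 with an adjusted p of 0.0181, past the threshold, without aOPC replicate 2, where 36.3% of all tested genes passed. Ogt, which is X-linked, was at 13.64 and 13.43 in aOPC and at 13.19 and 13.25 in aOL. Its groups did not overlap, with a difference of -0.31 ± 0.20 (adjusted p = 0.387, limma). Idh2, Cxxc5 and Ogt were the 3 of 7 genes without overlap, all lower in aOL. Over all tested genes, 29.9% did not overlap in that direction, so this share was near the background. The X chromosome took 2.45 to 3.13% of the RRHP counts. The Y chromosome took 0.555 and 0.479% in aOPC against 0.398 and 0.465% in aOL, so it did not show the contrast of 1 library with the other 3 that Ddx3y RNA had. The part of the sex difference between RNA libraries in the value of Ogt was not tested.

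Levels were compared between genes only per length, as the deposited log2 value minus the log2 of the annotated exon length in kb (GENCODE M21). The sources used here do not say that the authors divided by length. On this scale the mean of the 4 libraries was 11.65 for Idh1, 11.60 for Cxxc5, 10.37 for Ogt, 9.89 for Idh2, 7.74 for Tet3, 6.998 for Tet1 and 6.50 for Tet2. Idh1 and Cxxc5 overlapped over the libraries, as did Ogt and Idh2, and Tet1 and Tet2. Within each library, however, Ogt lay above Idh2. All libraries of Tet3 (7.57 to 8.11 log2 per kb) lay above all libraries of Tet1 (6.79 to 7.14 log2 per kb). The 3 Tet genes thus had the lowest levels of the 7 per kb of exon in every library. This order rests on the division by length, since on the deposited values Tet3 lay above Idh2 in all 4 libraries.

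The other genes of the pathway were taken from lists of symbols, and no gene of these lists passed the limma threshold. The list of other TET partners had 9 tested genes of 14 symbols. Of these, 8 had both aOL libraries above both aOPC libraries (31.9% of all tested genes did), and 5 had an unadjusted p under 0.05 with higher values in aOL (12.1% of all tested genes did). The list's median difference was 0.61 log2, against 0.02 over all tested genes. Some markers of other cell types also differed between these libraries. The median of 8 astrocyte markers was 10.48 and 9.9995 in aOPC against 9.01 and 9.65 in aOL (6 of 8 lower in aOL), and that of 10 microglia markers was 8.32 and 7.60 against 7.43 and 7.07 (7 of 10 lower). Of 8 vascular symbols 2 were listed. Cldn5 was at 0.33 and 1.80 in aOPC against 5.92 and 7.13 in aOL, and Vtn overlapped (4.96 and 7.09 against 5.99 and 9.74). The median of 5 neuron markers was 7.42 and 4.98 in aOPC against 5.28 and 4.46 in aOL, with overlap. Among them Stmn2 was at 7.42 and 6.53 against 5.28 and 4.46, and Snap25 differed by -0.0041 log2. Any part of these markers in the list's values was not tested.

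**Figure D2:**
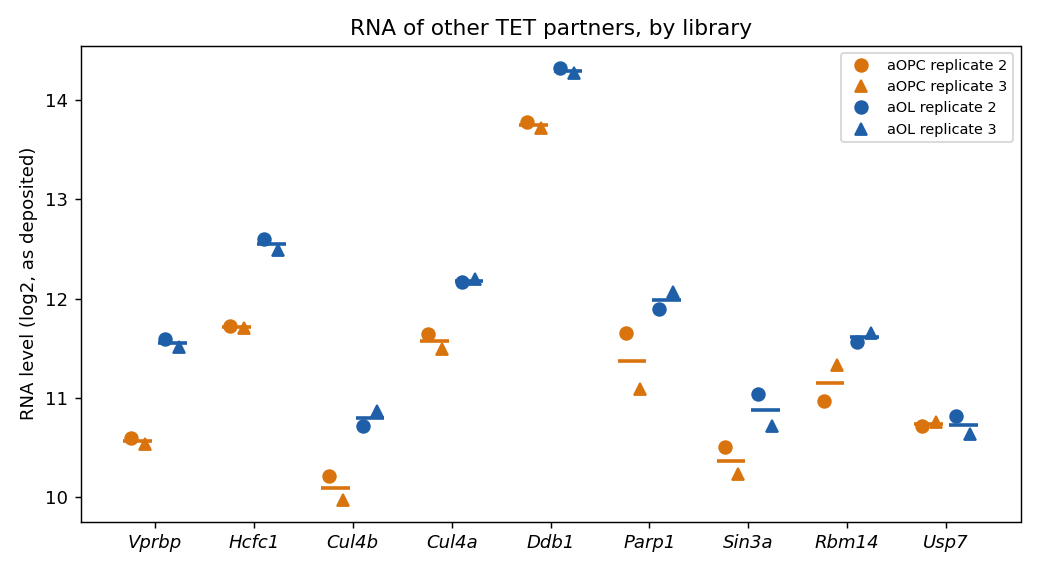
RNA level (log2, y axis) of the 9 tested genes of the list of other TET partners, with aOPC libraries in orange, aOL libraries in blue and lines at the population means. In all genes but Usp7 both aOL libraries lie above both aOPC libraries, and no gene passed the adjusted threshold.

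Vprbp, which encodes the substrate receptor DCAF1 of the CRL4 ubiquitin ligase, was at 10.60 and 10.53 in aOPC and at 11.60 and 11.51 in aOL. The difference was 0.99 ± 0.19 (adjusted p = 0.133, limma), wider than the spread within either population. Hcfc1, a chromatin cofactor that OGT binds and cleaves, was at 11.73 and 11.70 in aOPC and at 12.60 and 12.49 in aOL, a difference of 0.83 ± 0.19 (adjusted p = 0.143, limma). The cullin Cul4b was at 10.21 and 9.97 in aOPC and at 10.72 and 10.87 in aOL, a difference of 0.70 ± 0.21 (adjusted p = 0.174, limma). Cullins are the scaffolds of such ligases. The adaptor Ddb1 of the same ligase was at 13.79 and 13.72 in aOPC and at 14.33 and 14.27 in aOL (adjusted p = 0.194, limma), and Cul4a differed by 0.61 ± 0.19 (adjusted p = 0.181, limma).

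In the list of 2-oxoglutarate supply and use, all 21 genes were tested, 15 had a difference above 0 and 6 below, and the median was 0.15 log2. The 2 genes with an unadjusted p under 0.05 were both lower in aOL, a share of the list no larger than the 12% of all tested genes. They were Sdhb and Sdhc, subunits of succinate dehydrogenase, which oxidises succinate. Sdhb was at 13.30 and 13.45 in aOPC and at 12.45 and 12.70 in aOL, and Sdhc at 12.64 and 13.57 in aOPC and at 11.74 and 11.80 in aOL. Their adjusted p values were 0.158 and 0.165 by limma. Sdha, the catalytic subunit, differed by 0.12 ± 0.20 (adjusted p = 0.74, limma), and Sdhd by 0.50 ± 0.62 (adjusted p = 0.637, limma), both with overlap.

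In the list of O-GlcNAc cycling, no gene of 7 tested had an unadjusted p under 0.05, and the median was -0.07 log2. The gene with the smallest p was Mgea5, which encodes the enzyme that removes O-GlcNAc. It was at 13.25 and 12.60 in aOPC and at 13.61 and 13.67 in aOL (adjusted p = 0.235, limma). In the list of genes that remove oxidised methylcytosine, 1 of 11 tested genes had an unadjusted p under 0.05 (24% of all tested genes did) and the median was -0.06 log2. This was the DNA ligase gene Lig3, at 12.07 and 11.71 in aOPC and at 12.70 and 12.55 in aOL (adjusted p = 0.18, limma). Tdg, the glycosylase that excises the further oxidised bases, differed by -0.06 ± 0.26 (adjusted p = 0.897, limma).

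In the list of iron and ascorbate supply, 2 of 7 tested genes had an unadjusted p under 0.05, 1 in each direction, a share near the 24% of all tested genes, and the median was 0.08 log2. Gsto1, a glutathione transferase that can reduce dehydroascorbate, was at 11.02 and 11.30 in aOPC and at 9.80 and 9.99 in aOL. Its difference was -1.27 ± 0.22 (adjusted p = 0.127, limma). Slc2a3, a glucose transporter, was at 5.59 and 5.94 in aOPC and at 7.32 and 6.73 in aOL, a difference of 1.26 ± 0.30 (adjusted p = 0.146, limma).

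The second comparison concerned 5hmC within the genes themselves, and it first required a view of which sites RRHP could read. Over the genome, 97.6% of CCGG strands whose next CCGG in the direction of reading lay 40 to 400 bases away had reads, against 20.6% of those with a longer distance. These readable strands held 91.7% of all counts. Of the 397 sites, 280 and 299 had reads in the aOPC libraries against 301 and 344 in the aOL libraries, and 280, 246, 243 and 265 had reads once every library was thinned to the smallest total. The genes differed widely in how many readable strands they offered: 5 in Ogt, 12 in Idh1, 38 in Idh2, 44 in Tet2, 65 in Tet1, 72 in Cxxc5 and 108 in Tet3. Ogt held 0.47 CCGG per kb and Cxxc5 2.51, so a low total in Ogt rests on few sites. Levels per site are given below over readable sites only, in CPM (the count divided by the library total, times 1000000), a restriction chosen after the data were seen.

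Averaged over the libraries, gene-body signal per site was highest in Tet3 and Tet1 among the 6 genes with at least 5 such sites. Over readable sites with the gene's exon or intron label, the mean of the 4 libraries was 1.64 CPM per site in Tet3, 1.58 in Tet1, 1.34 in Tet2, 1.03 in Idh2, 0.87 in Idh1 and 0.61 in Cxxc5. The median over 16059 genes with at least 5 such sites was 0.84 CPM per site. Tet3 stood at the 89.7th percentile of these genes, Tet1 at the 88.3rd, Tet2 at the 79.5th and Cxxc5 at the 33.3rd. In aOPC replicate 2 Tet1 and Tet2 were both at 1.19 CPM per site, so the order of these neighbours did not hold in every library. In every library the mean of Tet3 and of Tet1 was above that of Cxxc5. These are levels over different numbers of sites (77 in Tet3, 38 in Tet1 and 67 in Cxxc5), and sites of one gene are not replicates. Nor do the labels cover whole genes. Of the strand sites with reads within the RefSeq gene, 52 of 81 in Tet1 and 101 of 139 in Tet3 carried the body label. The labelled Tet1 sites began 7444 bases inside the gene, so its body levels and sums leave out the start.

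**Figure D3:**
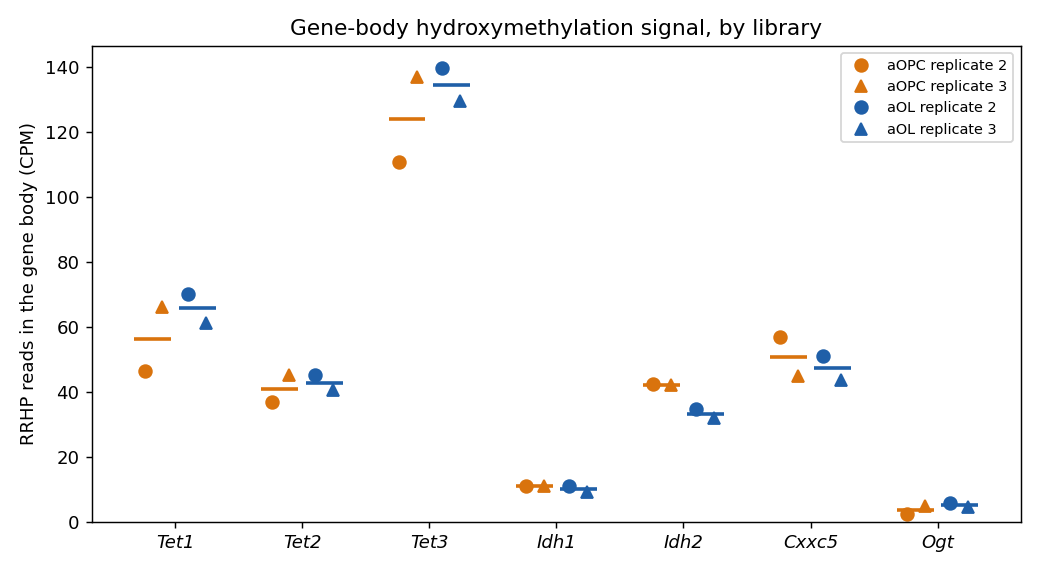
RRHP reads summed over the exon and intron sites of each gene (CPM, y axis, from 0) in the 2 aOPC libraries (orange) and the 2 aOL libraries (blue), with lines at the population means. Idh2 alone has both aOL libraries (34.6 and 31.9 CPM) below both aOPC libraries (42.3 and 41.9 CPM), and for Tet1, Tet2 and Tet3 aOPC replicate 2 is the lowest of the 4.

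Gene-body sums were then compared between aOPC and aOL. None of the 7 genes passed (edgeR quasi-likelihood test, adjusted p under 0.05), and 0.849% of tested genes did. Only Idh2 had an unadjusted p under 0.05 (7.3% of tested genes did), and DESeq2 also called none of the 7. The Tet3 body had 788 and 2341 counts in aOPC against 2221 and 3502 in aOL, or 110.8, 136.7, 139.5 and 129.4 CPM. Only aOPC replicate 2 was lower, and the log2 fold change (aOL over aOPC) was 0.10 ± 0.14 (adjusted p = 0.861, edgeR). The Tet1 body had 46.3 and 66.1 CPM in aOPC against 70.0 and 61.2 CPM in aOL, a log2 fold change of 0.19 ± 0.17 (adjusted p = 0.798, edgeR). It was 0.51 (adjusted p = 0.00197) without aOPC replicate 3 and -0.037 without aOPC replicate 2, so 1 aOPC library decided the call. Without aOPC replicate 3, 22.6% of all tested gene bodies were called. The Tet2 body had 36.8 and 45.0 CPM in aOPC against 45.2 and 40.4 CPM in aOL, with overlap and a log2 fold change of 0.04 ± 0.14 (adjusted p = 0.947, edgeR).

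The Idh2 body had 42.3 and 41.9 CPM in aOPC against 34.6 and 31.9 CPM in aOL. The groups did not overlap, as in 17.8% of tested gene bodies in that direction, and the log2 fold change was -0.35 ± 0.13 (adjusted p = 0.501, edgeR). A single intronic site that was read in aOPC alone, described below, supplied 38 and 132 of the 301 and 718 aOPC counts. With only sites of at least 3 reads in all libraries, which leaves that site out, the Idh2 log2 fold change was -0.11. The Idh1 body had 10.97 and 11.04 CPM in aOPC against 10.99 and 9.09 CPM in aOL (log2 fold change -0.15 ± 0.20, adjusted p = 0.858, edgeR). The Cxxc5 body had 56.7 and 44.7 CPM in aOPC against 50.9 and 43.5 CPM in aOL, with a log2 fold change of -0.10 ± 0.15 (adjusted p = 0.867, edgeR). The Ogt body had only 17 and 80 counts in aOPC against 89 and 123 in aOL. Its log2 fold change was 0.44 ± 0.38 (adjusted p = 0.797, edgeR), with 1.08 (adjusted p = 0.0397) without aOPC replicate 3, where 22.6% of gene bodies were called, and 0.079 without aOPC replicate 2.

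The signal was unevenly spread over each gene. In Tet3, whose 101 sites make it the largest of the 7, the 5 highest sites held 28.3% of the gene's mean CPM, and in Idh1 and Ogt they held 78.9% and 81.6%. The highest Tet3 site, in intron 3 on the minus strand at position 83424336 of chromosome 6, had 9.42 and 10.6 CPM in aOPC against 10.6 and 8.24 CPM in aOL. The highest Tet2 site, in intron 1 at 133534282 of chromosome 3, had 7.03 and 7.24 CPM in aOPC against 5.84 and 5.32 CPM in aOL. Both aOL libraries were lower at this Tet2 site, without passing the test (log2 fold change -0.46 ± 0.27, adjusted p = 0.654, edgeR). The highest Tet1 site, in coding exon 4 at 62839732 of chromosome 10, had 3.51 and 5.14 CPM in aOPC against 6.22 and 4.80 CPM in aOL, with overlap.

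The highest Idh2 site, in intron 1 at 80103287 of chromosome 7, had 8.997 and 6.89 CPM in aOPC against 8.29 and 6.99 CPM in aOL. The highest Idh1 site, in intron 6 at 65164854 of chromosome 1, had 2.39 and 3.21 CPM in aOPC against 4.33 and 2.37 CPM in aOL. The groups overlapped at both. The highest Cxxc5 site, in intron 1 at 35845617 of chromosome 18, had 5.76 and 5.43 CPM in aOPC against 5.02 and 3.84 CPM in aOL. The highest Ogt site, in intron 4 at 101655351 of the X chromosome, reached 1.88 CPM at most.

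**Figure D4:**
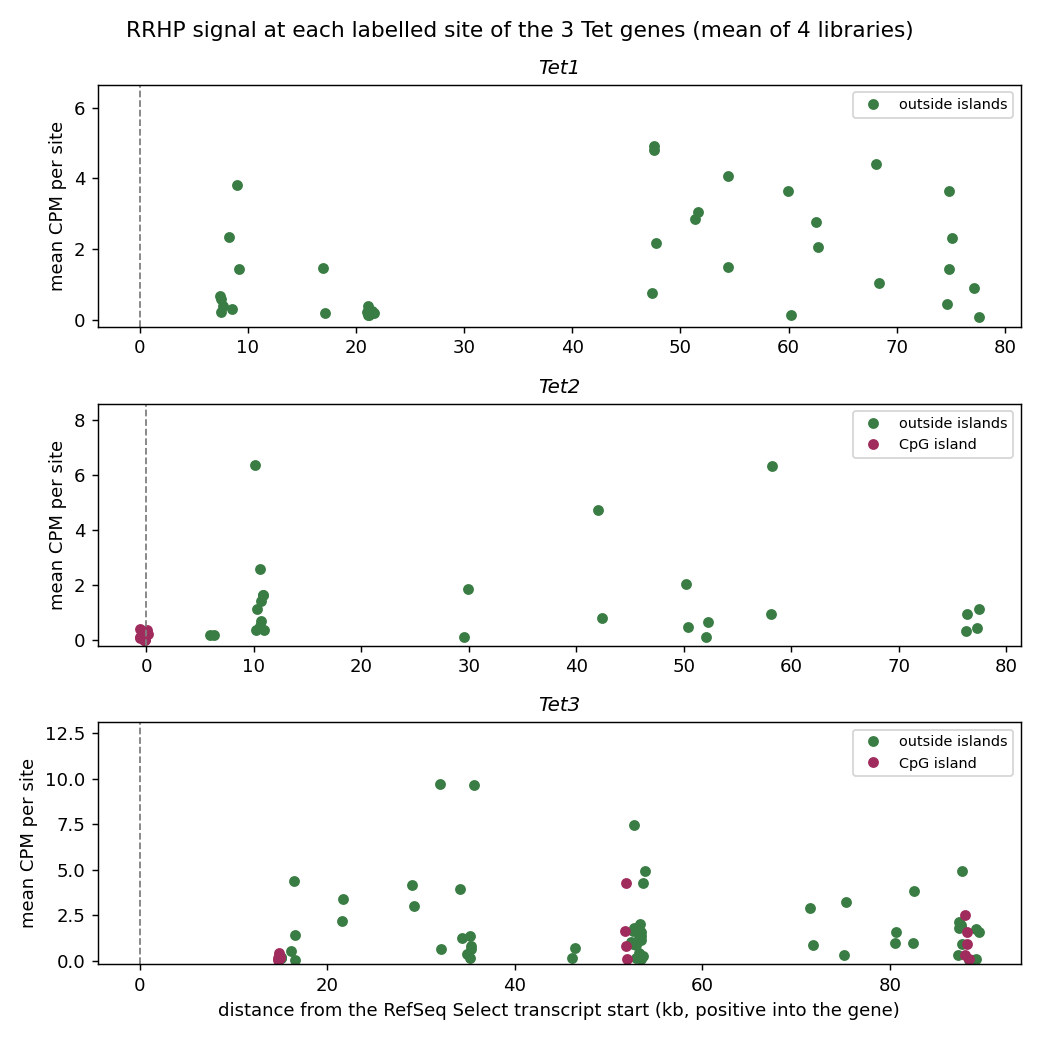
Mean CPM over the 4 libraries (y axis) at each readable labelled site of Tet1, Tet2 and Tet3 against the distance from the start of the RefSeq Select transcript (kb, x axis, dashed line at the start), with CpG island sites in purple. The Tet2 sites at the start lie at or below 0.42 CPM, and sites within the genes reach 4.92 CPM in Tet1, 6.36 CPM in Tet2 and 9.70 CPM in Tet3.

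CpG islands at the starts of the genes carried little signal, and islands inside the genes carried more. The RefSeq promoter windows of the 7 genes (2000 bases before to 500 after a start) held 86 readable island sites with any label or none, 10 of them in Tet1, 22 in Tet3 and 0 in Ogt. They had a mean of 0.15 CPM per site, and none reached the minimum for testing (10 reads in at least 2 libraries). The 24 readable island sites with a label of these genes elsewhere had 0.88 CPM per site, and 9 of them reached it. Over all readable island sites the corresponding means were 0.17 and 0.37 CPM per site. The 24 sites lay in 2 genes only, 9 in Tet3 and 15 in Cxxc5, and neighbours share fragments, so no test was made. In Tet3 the islands inside the gene lay in exons 4 and 12, and the strongest of their sites, in coding exon 4 at 83404529, had 3.51 and 4.15 CPM in aOPC against 5.53 and 3.81 CPM in aOL.

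At the starts, the 18 Tet2 promoter sites were all in an island. Their mean over readable sites was 0.27 and 0.09 CPM in aOPC against 0.06 and 0.08 CPM in aOL, with aOPC replicate 2 alone standing high. The floor of 3 counts corresponds to 0.422 and 0.175 CPM in the aOPC libraries and to 0.188 and 0.111 CPM in the aOL libraries, so these means lie under what 3 counts per site give. At the promoter islands of Tet1, Tet3, Idh1, Idh2 and Cxxc5 aOPC replicate 2 also had the highest mean, as it had over all island sites (0.38 CPM against 0.16 to 0.21 in the other libraries). Single sites of these islands were too low to be tested, and only their sums were compared.

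Promoter sums gave no called gene among the 5 that could be tested, and 0.768% of tested promoters were called (edgeR, adjusted p under 0.05). None of the 5 had an unadjusted p under 0.05 (5.97% of tested promoters did), and DESeq2 called none. Tet2 had 34 and 28 promoter counts in aOPC against 18 and 40 in aOL, a log2 fold change of -0.62 ± 0.42 (adjusted p = 0.998, edgeR), or -1.25 on library totals. Idh1 had 35 and 28 counts in aOPC against 30 and 70 in aOL, and Idh2 had 49 and 31 in aOPC against 37 and 86 in aOL. Their log2 fold changes of 0.13 and 0.08 turned to -0.51 and -0.62 when counts were scaled to library totals alone. The scaling by edgeR moved the median promoter by 0.63 log2 relative to library totals, and directions of promoters are relative to that shift. Cxxc5 had 27 and 23 counts in aOPC against 17 and 45 in aOL (log2 fold change -0.24 ± 0.43, adjusted p = 0.998, edgeR), or -0.86 on library totals. Ogt had at most 15 promoter counts in a library and was not tested.

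The promoter label did not mark the RefSeq start for all genes. For Tet1 the 7 labelled sites lay 7444 to 8274 bases inside the gene, at the second exon of the RefSeq transcript, and Tet3 had no labelled promoter site. The labelled Tet1 sites had 4.08 and 3.85 CPM in aOPC against 5.09 and 5.36 CPM in aOL, a log2 fold change of 0.80 ± 0.42 (adjusted p = 0.932, edgeR). It was 1.42 (adjusted p = 0.012) without aOPC replicate 3, where 11% of tested promoters were called, 0.37 without aOPC replicate 2 and 0.40 on library totals without TMM. The highest of them, at 62879050 of chromosome 10, had 1.41 and 1.87 CPM in aOPC against 3.33 and 2.81 CPM in aOL (adjusted p = 0.49, edgeR).

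In windows around the RefSeq starts, an alternative chosen after the data were seen, the 11 Tet1 sites had 34 and 24 counts in aOPC against 20 and 44 in aOL, and the log2 fold change was -0.42 ± 0.45 (adjusted p = 0.995, edgeR). The sign thus differed between the labelled sites of the second exon and the start. The 37 Tet3 sites had 78 and 70 counts in aOPC against 62 and 170 in aOL, a log2 fold change of 0.04 ± 0.42 (adjusted p = 0.996, edgeR). Of these, 18 carried the promoter label of another gene. No window of the 7 genes was called, and 1.2% of tested windows were.

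Single sites were compared last. Of the 397 sites, 137 reached the minimum for testing and 5 were called (edgeR, adjusted p under 0.05), or 3.65%, against 2.29% of all tested sites. The 5 lay in Tet1 (1), Idh2 (1) and Cxxc5 (3). Of them 4 were higher in aOL and 1 was lower, and of all tested sites 1.21% were called higher and 1.08% lower. An unadjusted p under 0.05 was found at 10 of the 137 sites and at 9.75% of all tested sites. No site of Tet2, Tet3, Idh1 or Ogt was called among 19, 52, 4 and 3 tested. Of the 137 sites, 51 did not overlap between groups, and 40.6% of all tested sites did not. The median log2 fold change over the 137 sites was 0.04, with 72 above 0 and 65 below. None of the 5 had at least 10 reads in all 4 libraries, and with that minimum no site of the 7 genes was called by edgeR.

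**Figure D5:**
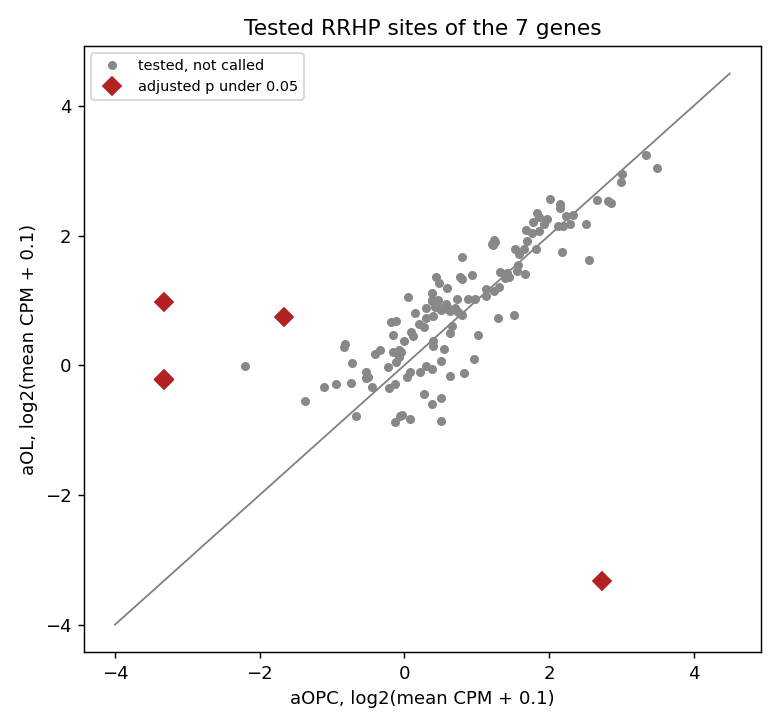
Mean CPM of the 137 tested sites of the 7 genes in aOPC (x axis) and aOL (y axis), each as log2(CPM + 0.1), with the line of equality and the 5 called sites as red diamonds. At the scale of the plot 2 of the Cxxc5 diamonds coincide, 4 of the called sites have no count in either library of one population, and most other sites lie near the line.

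The Idh2 site in intron 3, at 80099873 on the minus strand of chromosome 7, had 38 and 132 counts in aOPC against 0 and 0 in aOL. Against the floor of 3 counts per library it was at least 43.6-fold lower in aOL (adjusted p = 4.86e-06, edgeR). The opposite end of the same fragment, the plus strand of the CCGG 118 bases away, had 4 and 25 counts in aOPC against 0 and 0 in aOL. The 2 ends were read from the same stretch of DNA and are not independent. The next CCGG on that side of the fragment, 639 bases from the called one, had 10 and 20 counts in aOPC against 30 and 45 in aOL on its minus strand, so neighbouring sites were read in both populations.

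The called Cxxc5 sites likewise sat on fragment ends. In intron 1, the plus strand at 35841556 of chromosome 18 had 0 and 0 counts in aOPC against 36 and 40 in aOL (adjusted p = 0.00101, edgeR), and was at least 6.26-fold higher in aOL. The minus strand at 35842195, the next CCGG 638 bases away, had 0 and 0 in aOPC against 14 and 17 in aOL (adjusted p = 0.0234, edgeR), at least 2.53-fold higher. These 2 calls are the opposite ends of one stretch. The plus strand at 35852097 had 0 and 0 in aOPC against 15 and 16 in aOL (adjusted p = 0.0251, edgeR), at least 2.57-fold higher, and the facing end 403 bases away had 8 and 5 counts in aOL and 0 in both aOPC libraries. All 3 faced a distance to the next reference CCGG over the 400 bases at which most strands had no reads.

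Sites read in one population alone were also frequent around these genes. In the 5 Mb bin that holds Idh2, 8.41% of tested sites had at least 10 reads in both libraries of one population and at most 3 in both of the other. The bin of Cxxc5 had 5.63%, against 3.04% of all tested sites. Of the genes without a called site, the bin of Idh1 had 14.6%, that of Tet2 5.85%, that of Ogt 3.52% and that of Tet3 1.43%. The bin of Tet1, with 1 called site, had 1.24%. The part of this local frequency in the calls was not tested.

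The Tet1 site, at 62810146 on the minus strand in the 3' UTR, had 1 and 5 counts in aOPC against 29 and 36 in aOL. This is 0.14 and 0.29 CPM against 1.82 and 1.33 CPM, and the log2 fold change was 2.57 ± 0.59 (adjusted p = 0.0305, edgeR). The opposite fragment end, 392 bases away, had 0 and 1 counts in aOPC against 1 and 4 in aOL. With DESeq2 the Tet1 site had a log2 fold change of 2.67 and an adjusted p of 0.261, and the Idh2 site and the first Cxxc5 site were the 2 that stayed called. A site with 10 reads in one population only cannot reach that minimum in 2 libraries once a library of that population is left out. Hence of the 5 only the Idh2 site could be tested without either aOL library, where it was called, and it could not be tested without either aOPC library. Without aOPC replicate 2 the 4 sites higher in aOL were all called. Without aOPC replicate 3, 10 sites were called, 4 higher and 6 lower in aOL, and the first Cxxc5 site was the only 1 of the 4 among them. In that fit 6.74% of all tested sites were called.

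The other 132 tested sites had log2 fold changes between -1.34 and 2.36 and adjusted p values of at least 0.161. In the genes without a call, the site with the smallest p was in coding exon 11 for Tet2, at 133468038, with 1.41 and 1.23 CPM in aOPC against 0.50 and 0.70 CPM in aOL (adjusted p = 0.449, edgeR). For Tet3 it was in intron 3 at 83439896, with 8.15 and 3.39 CPM in aOPC against 2.26 and 3.73 CPM in aOL (adjusted p = 0.484, edgeR), where aOPC replicate 2 stood apart. Its log2 fold change was -1.65 and called without aOPC replicate 3 (adjusted p = 0.00547, edgeR), where 6.74% of all tested sites were called, and -0.11 without aOPC replicate 2, so 1 aOPC library decided that call. For Idh1 it was in intron 6 at 65165052, with 3.09 and 2.45 CPM in aOPC against 1.44 and 1.77 CPM in aOL (adjusted p = 0.48, edgeR). For Ogt it was in intron 6 at 101662078, with 0.42 and 1.23 CPM in aOPC against 1.63 and 1.37 CPM in aOL (adjusted p = 0.769, edgeR).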

How the data were processed

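RNA was measured by RNA-sequencing and 5hmC by RRHP in aOPC and aOL (2 libraries each). The authors deposited RNA as normalised log2 values per gene symbol, of nearly equal distribution in all libraries, which removes differences shared by most genes. Per the labels, BWA, the mm10 build and DESeq2 1.2.5 were used, and the study's methods give another version of DESeq2. The authors deposited RRHP as unscaled read counts for every CpG site on each strand, with promoter, exon, intron and island columns. The aligner of the RRHP reads and the treatment of duplicates are not given in the sources used here. A site missing from a library was given a count of 0.

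RNA was tested with limma 3.58.1 (genes that reached a log2 value of 5 in 2 or more libraries). RRHP was tested with edgeR 4.0.16 (quasi-likelihood, TMM on library totals) for sites that reached 10 reads in 2 or more libraries, and for gene-body and promoter sums after filterByExpr. p-values are Benjamini-Hochberg adjusted over all tested features. The SE of an edgeR fold change was taken from its F statistic. DESeq2 1.42.0 and R 4.3.3 were used for alternatives. The tests were tried on simulated data. With 2 libraries per population, p-values weigh a difference against the spread between these libraries, with the variance moderated over all tested features. Floors cover counting error only, and PCR reads without molecular identifiers are not independent molecules.

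The 7 genes, the pathway lists and the tests were chosen with earlier results of these data known. Named list genes are those with unadjusted p under 0.05 (up to 3 per list and direction by p, otherwise the smallest p). Named sites are every called site and, per gene, the site of highest mean CPM, of smallest p and of highest signal in a promoter or island. Sdha, Sdhd, Tdg, Ddb1 and Cul4a were added for their roles after values were seen. Site positions are 1-based on GRCm38, and exons are numbered in the RefSeq Select transcript.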

Additional observations from a re-analysis of the deposited data

How the results depend on the processing

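No RNA call among the 7 genes was made under the other filters, recentring, the trend prior or the replicate block, but leaving out 1 library gave 0 to 2 calls (2 without aOPC replicate 2). Under these omissions the RNA difference ran from -0.12 to 0.24 for Tet1, from -0.73 to 1.20 for Tet2 and from -0.39 to 0.0071 for Idh1 (-0.03 for Tet1 without aOL replicate 2), and, without a change of sign, from -0.50 to -0.039 for Tet3, from -0.66 to -0.39 for Idh2, from -0.80 to -0.31 for Cxxc5 and from -0.42 to -0.21 for Ogt. The RNA fits without an aOPC library also called far more of all genes. Gene-body calls ran from 0 to 2 and promoter calls from 0 to 1, above 0 only without aOPC replicate 3. Gene-body log2 fold changes ran from -0.037 to 0.51 for Tet1, from -0.10 to 0.22 for Tet2 (-0.03 without aOL replicate 2), from -0.047 to 0.29 for Tet3, from -0.26 to 0.049 for Cxxc5 (0.0049 without aOL replicate 3), from -0.28 to -0.012 for Idh1, from -0.40 to -0.29 for Idh2 and from 0.079 to 1.08 for Ogt. Tet2 was at -0.058 and Idh2 at -0.11 with only sites of at least 3 reads in all libraries. The cause was not tested. Promoter log2 fold changes turned for Idh1 (-0.51) and Idh2 (-0.62) on library totals without TMM, where Tet2 was at -1.25 and Cxxc5 at -0.86. With 1 library left out they ran from -0.067 to 0.39 for Idh1, from -0.25 to 0.54 for Idh2, from -0.80 to -0.39 for Tet2, from -0.41 to -0.027 for Cxxc5 and from 0.37 to 1.42 for Tet1. In RefSeq windows they were -0.42 for Tet1, -0.034 for Idh2, 0.24 for Idh1 and -0.55 for Cxxc5.

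Single-site calls fell from 5 to 0 with 10 reads required in all 4 libraries, which leaves out sites absent from one population, and to 2 with DESeq2. With 1 library left out they ran from 1 to 10 (4 higher and 0 lower in aOL without aOPC replicate 2, 4 and 6 without aOPC replicate 3, 0 and 1 without either aOL library), in part because sites read in one population could no longer be tested. The 7 genes had 1.11 times as many sites with reads in aOL as in aOPC, and 0.966 times as many with every library thinned to the smallest total. The replicate numbers come from different reporter mice, and the deviations of same-numbered libraries correlated at -0.07 (RNA) and -0.04 (RRHP). With the replicate block, 5 single sites and 0 genes by RNA, gene body or promoter were called. Depth limits Ogt (17 body counts in aOPC replicate 2) and single sites of promoter islands.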
